A study of Mus musculus with 8 samples.

Results

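The 92 genes described here encode the proteins of the cytoplasmic ribosome. They were chosen by name from the 21951 protein-coding genes of the GENCODE mouse annotation, as those named Rpl or Rps followed by a digit together with Rplp0, Rplp1, Rplp2 and Rpsa. Names that begin with Rps6k, which belong to kinases, were left out. The rule took 57 Rpl genes of the large subunit, 35 Rps genes of the small subunit and, among both, 15 paralogs or copies with a pseudogene name. These 15 include Rps19bp1, which encodes a protein that binds a ribosomal protein and is not itself a ribosomal subunit. A peak belonged to a gene when its midpoint lay in the gene body on the same strand, and 478 of the 29555 peaks in 4 libraries did so for these genes.

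The peaks come from CLIP-seq, in which RNA is crosslinked to protein with ultraviolet light and sequenced after immunoprecipitation, in mouse embryonic stem cells. Cells carried the coding sequence of human MBD5 or human MBD6 in pPB-3XFlag-Hyg, were selected with hygromycin as stable overexpression lines, and were grown with LIF, CHIR99021 and PD0325901. MBD5 and MBD6 are proteins with a methyl-CpG-binding domain. Precipitation used an antibody to Flag according to the methods and the sample characteristics, but an antibody to MBD6 according to the labels' extraction protocol. Each protein had 2 CLIP libraries, Flag-MBD5 and Flag-MBD6, and the 4 input libraries were not used here. RNA was cut with RNase T1, which cleaves after G, and was size-selected on a gel. The promoter of the construct and whether the lines are single clones are not given in the sources used here.

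Estimated reads were 478790 and 500143 for Flag-MBD5, then 983918 and 1111742 for Flag-MBD6, a ratio of 2.14 between the proteins. Between replicates the counts differed less than sampling noise alone would give, with a chi-square per degree of freedom of 0.496 at 685 sites for Flag-MBD5 and 0.414 at 277 sites for Flag-MBD6. At most 5 reads with the same start were kept by the authors, which also narrows that spread. Each protein was therefore counted as 1 sample. No test between the proteins was run, the values of both libraries are given side by side, and even an exact two-sided permutation test of 2 against 2 libraries could not go below 1 in 3. Among marker genes, 9 of 10 pluripotency genes had a peak in at least 1 library, against 19.4% of all protein-coding genes, and Lin28a had none. Only 3 of the 10 had a peak in all 4 libraries, against 7.81%. Both Flag-MBD5 libraries marked 3 of them and both Flag-MBD6 libraries 7, against 8.13% and 14.2%, and Pou5f1 and Nanog had no Flag-MBD5 peak. None of 5 feeder genes (Col1a1, Col1a2, Col3a1, Thy1 and Postn) had any peak. Peaks mark RNA recovered above a local background rate, and no input was used here. The amount of an RNA, binding per RNA and recovery without binding therefore cannot be told apart.

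Ribosomal protein mRNAs are short, abundant and translated under common control, and their genes have left many processed pseudogenes, which are intronless copies, across mammalian genomes. Many of the genes also host small nucleolar RNAs (snoRNAs), which are released mostly from introns. Box C/D snoRNAs guide 2′-O-methylation of ribosomal RNA through a C box near their 5′ end and a D box near their 3′ end, and box H/ACA snoRNAs guide pseudouridylation and end with an ACA box.

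Ribosomal protein genes held peaks more often than protein-coding genes at large. A peak was present in 59 and 55 of the 92 genes for Flag-MBD5, then in 61 and 64 for Flag-MBD6. Over all protein-coding genes these shares were 10.1% and 9.9%, and 16.2% and 16.5%. Both Flag-MBD5 libraries marked 54 of the 92 genes, against 8.13% of all protein-coding genes, and both Flag-MBD6 libraries marked 58, against 14.2%. All 4 libraries marked 53, which is 57.6%, against 7.81% of all protein-coding genes. At least 1 library marked 68 genes, against 19.4%, and 24 genes had no peak. The libraries differ in depth and no input level of the mRNAs was used, so these counts are not corrected for the abundance of the RNAs.

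The counts were alike for the subunits and differed for the copies. Of the large-subunit genes 32 of 57 had a peak in all 4 libraries, and of the small-subunit genes 21 of 35. Of the P-stalk genes, Rplp0 and Rplp2 were marked in all 4 libraries and Rplp1 in 1 library of each protein. Only 3 of the 15 paralogs and copies had a peak in any library (Rpl22l1, Rps27l and Rps19bp1), and each of these had one in all 4. Among the 77 other members 50 had a peak in all 4 libraries and 65 in at least 1. By comparison, 5 of 78 mitochondrial ribosomal protein genes and 4 of 7 elongation factor genes were marked in all 4 libraries.

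The genes that host snoRNAs accounted for much of that count. A snoRNA lay inside 30 members, and all 30 had a peak in all 4 libraries. Of the 62 members without a snoRNA, 23 had a peak in all 4 libraries and 38 in at least 1. When peaks that start in a small RNA were left out, 35 members kept a peak in all 4 libraries in place of 53.

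The 5′ end of a peak was therefore placed, 15 nt inside the peak, in the annotation of the strand it lies on. In ribosomal protein genes 49 of 106 and 46 of 103 peaks of the Flag-MBD5 libraries and 50 of 132 and 55 of 137 peaks of the Flag-MBD6 libraries started in a small RNA. As shares these are 45.5% for Flag-MBD5 and 39.0% for Flag-MBD6 (95% Wilson intervals 38.8% to 52.2% and 33.4% to 45.0%, counting error only). Among all peaks of the 4 libraries, small RNAs held 5.45%, 5.35%, 3.53% and 3.36%. Peaks starting in coding exons made up 51.2% of the Flag-MBD5 peaks and 55.0% of the Flag-MBD6 peaks in these genes, against 78.0% to 79.4% of all peaks. Of all peaks that started in a small RNA anywhere, 16.4% for Flag-MBD5 and 16.2% for Flag-MBD6 lay in the ribosomal protein genes.

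**Figure D1:**
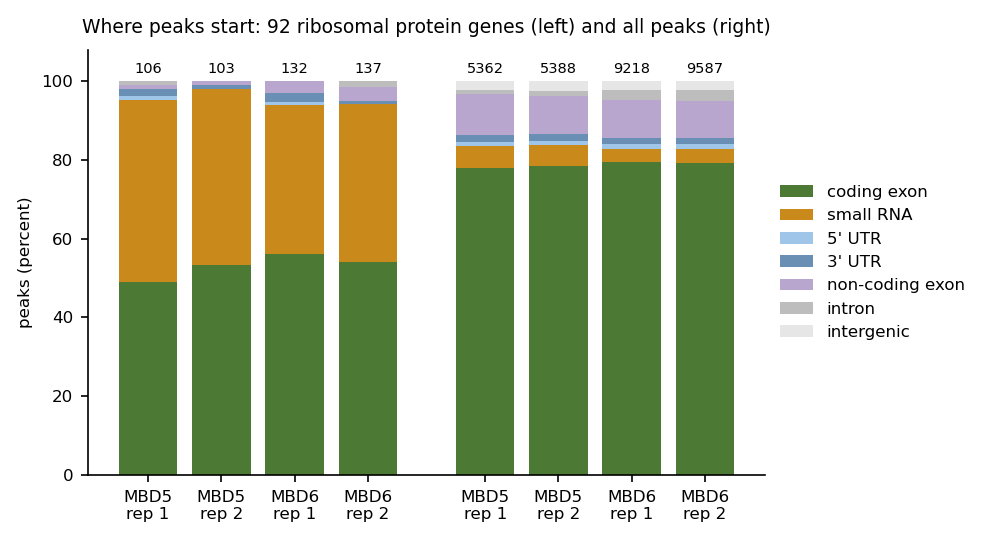
Share of peaks, in percent, by where they start, for each of the 4 libraries, in the ribosomal protein genes (left) and over all peaks (right), with the number of peaks above each bar. Starts in small RNAs make up 45.5% for Flag-MBD5 and 39.0% for Flag-MBD6 in ribosomal protein genes, against 3.36% to 5.45% of all peaks.

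The host genes held 58 annotated snoRNAs. A peak started in 48 and 45 of them for Flag-MBD5, then in 47 and 51 for Flag-MBD6. All 4 libraries had a peak start in 43 of the 58, which is 74.1%, against 27.7% of the 292 snoRNAs inside other protein-coding genes. At least 1 library had one in 51, which is 87.9%, against 47.9%. Levels of the snoRNAs were not measured in these files, and their part in this difference was not tested.

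Sequences of 7 of these RNAs are shown, since they carry the called differences between the proteins or are among the highest peaks in small RNAs of the family. They were read from GENCODE transcripts, 5′ to 3′ on the strand of the host gene, and capitals mark the 10 nt that begin at the 5′ end of the highest peak.
Gm23344 in Rpl4: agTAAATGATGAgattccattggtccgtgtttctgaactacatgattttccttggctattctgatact
Snord21 in Rpl5: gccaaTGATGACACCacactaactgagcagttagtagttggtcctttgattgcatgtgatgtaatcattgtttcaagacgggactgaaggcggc
Snord100 in Rps12: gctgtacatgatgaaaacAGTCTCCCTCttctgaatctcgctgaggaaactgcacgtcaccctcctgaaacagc
Snord42a in Rpl23a: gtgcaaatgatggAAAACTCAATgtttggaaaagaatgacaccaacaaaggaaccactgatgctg
Snord43 in Rpl3: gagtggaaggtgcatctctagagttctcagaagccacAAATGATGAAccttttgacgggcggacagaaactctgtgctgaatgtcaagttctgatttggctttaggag
Snora3 in Rpl27a: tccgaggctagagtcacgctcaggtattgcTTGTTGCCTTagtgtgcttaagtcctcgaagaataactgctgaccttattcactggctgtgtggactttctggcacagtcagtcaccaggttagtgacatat
Snora64 in Rps2: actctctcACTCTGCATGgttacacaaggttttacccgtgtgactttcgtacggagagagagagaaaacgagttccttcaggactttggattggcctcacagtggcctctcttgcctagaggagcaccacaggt

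In mm10 these lie, in the same order, at chr9:64175048-64175115 (+), chr5:107904555-107904648 (+), chr10:23785750-23785823 (-), chr11:78181299-78181363 (-), chr15:80082847-80082954 (-), chr7:109520120-109520251 (+) and chr17:24720772-24720905 (+). Each lies inside its host gene on the host's strand. The annotation types Snord43 as a miRNA, so it is not among the 58 snoRNAs.

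Peak starts were then set against the box motifs. The motif TGATGA was searched in the first 25 nt, CTGA in the last 25 nt and ACA in the last 6 nt of each snoRNA, on the strand of the RNA. Of the 58 snoRNAs, 23 held both TGATGA and CTGA, 21 held ACA without TGATGA and 14 held neither pattern. Of these 14, 13 held CTGA, so an RNA without the exact TGATGA may still be a box C/D RNA. Over all 1507 annotated snoRNAs the shares were 20.7%, 44.7% and 34.6%. A match describes letters only, and CTGA can also be part of other words.

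In the 21 RNAs with both TGATGA and CTGA that had a peak, the highest peak began a median of 5 nt into the RNA, between 3 nt before its start and 24 nt into it. In 6 of the 21, however, the peak of at least 1 library began more than 25 nt into the RNA, and as far as 56 nt. For the highest peak, the start in 19 of the 21 lay within 10 nt of the TGATGA. The TGATGA was searched only in the first 25 nt and itself began a median of 6 nt into the RNA. Nearness to the motif therefore cannot be told apart from nearness to the RNA's start. In the 17 RNAs with ACA and a peak the highest peak began a median of 13 nt into the RNA, and the farthest start was 89 nt. In the 13 with neither pattern the median start was 11 nt. All 33 RNAs with CTGA and a peak outside the ACA group had a median of 5 nt and a farthest start of 45 nt. A start within 10 nt of the RNA's own start was found in 22 of these 33 and in 6 of the 17 with ACA.

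**Figure D2:**
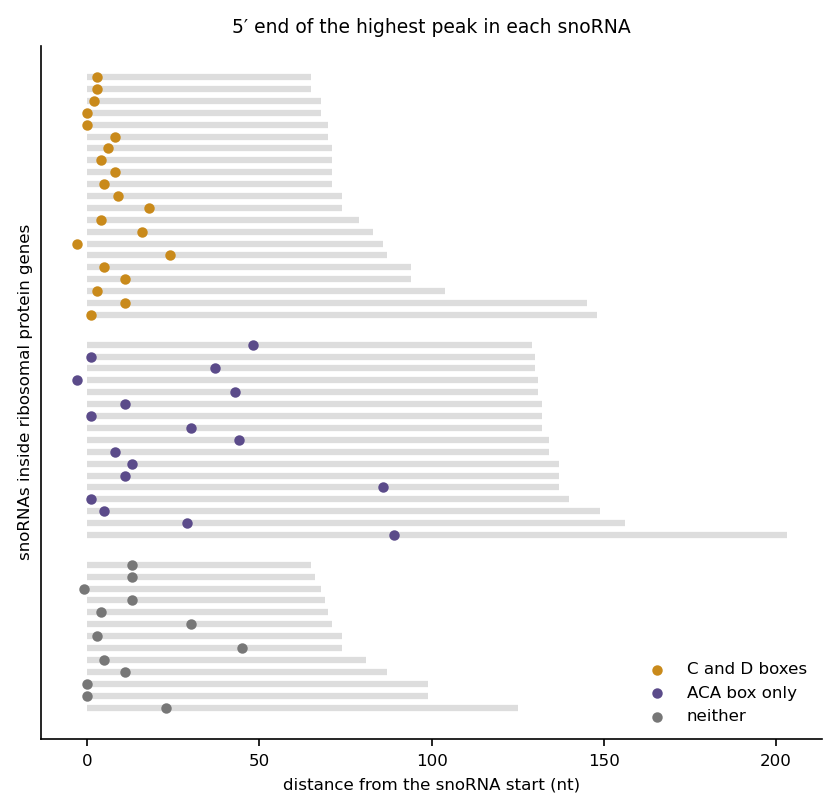
Position of the 5′ end of the highest peak, in nt from the annotated start, in each snoRNA of the ribosomal protein genes that had a peak. Grey bars are the RNAs, drawn to length, and points are coloured by the letters found. Those with TGATGA and CTGA have a median of 5 nt, and those with ACA run as far as 89 nt.

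Fold enrichment is the ratio of reads at a peak's summit to the background rate there, with 1 added to each. In Rpl3, whose product lies by the peptidyl transferase centre, Snord43 had fold enrichments of 45.3 and 36.2 for Flag-MBD5, then 21.4 and 25.4 for Flag-MBD6. In Rpl27a, Snora3 had 39.0 and 20.3, then 32.7 and 19.8. The libraries of the proteins did not overlap for Snord43, whereas for Snora3 the replicates of each protein were farther apart than the proteins.

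In Rps2, Snora64 had 31.0 and 24.3 for Flag-MBD5, then 26.6 and 22.4 for Flag-MBD6, which overlap. Snord32a in Rpl13a had 29.6 and 20.6, then 23.9 and 19.4, and Gm24523 in Rpl30 had 20.7 and 20.1, then 23.3 and 25.4. The proteins overlapped for Snord32a, and for Gm24523 both Flag-MBD6 values were above both Flag-MBD5 values. In Rpl17, the highest peak lay in Gm26202 and had 27.6 and 40.2, then 33.1 and 28.7.

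Rpl4 was the member with the highest peaks and hosts 5 annotated snoRNAs. It had 8 peaks in each library, 4 starting in coding exons and 4 in snoRNAs. Besides Gm23344, peaks started in Snord16a, Gm22571 and Gm23136, and the fifth, Gm22455, had none. Snord16a had fold enrichments of 39.8 and 39.1 for Flag-MBD5, then 19.5 and 21.3 for Flag-MBD6. Gm22571 had 17.0 and 32.3, then 10.1 and 14.0, and Gm23136 had 24.5 and 27.7, then 16.05 and 19.96. In all 4 of these snoRNAs both Flag-MBD5 libraries were above both Flag-MBD6 libraries. A lean in this direction was not particular to Rpl4. Of all 246 small RNA sites with a peak in all 4 libraries, 150 had a lower mean log2 fold enrichment in Flag-MBD6, overlap aside. In ribosomal protein genes 27 of 47 did.

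One peak outside the small RNAs of GENCODE fell on a snoRNA that the RefSeq table for GRCm38.p6 lists. In Rpl7a a peak of all 4 libraries began at position 26912849 of chromosome 2, 1 nt into a RefSeq snoRNA of 68 nt (chr2:26912848-26912915). Its fold enrichments were 17.8 and 22.7, then 12.9 and 13.6. GENCODE places this start in a non-coding exon of Rpl7a, so it is not in the small RNA counts.

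Peaks that started in coding exons lay in 38 and 39 members for Flag-MBD5, then in 46 and 48 for Flag-MBD6. They had median fold enrichments of 12.5 and 9.80, then 10.6 and 10.4, and that of small RNA starts in the same genes was 15.8 and 17.7, then 14.1 and 14.2. Median summit reads were 25.5, 22, 26.5 and 30.5 for coding starts and 42, 48, 58 and 57 for small RNA starts.

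The 8 coding sites that ranked highest by fold enrichment, averaged over the 4 libraries, are shown with that of Rpl38, which differed most between the proteins among coding sites with a peak in all 4 libraries, and that of Rps25. Each line gives the 10 nt before the peak in lower case and the first 30 nt of the peak in capitals, from the GENCODE transcript. All of these are coding sequence except part of the lead before the Rps25 start codon.
Rpl4, exon 10: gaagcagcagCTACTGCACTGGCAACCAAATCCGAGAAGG
Rpl22, exon 3: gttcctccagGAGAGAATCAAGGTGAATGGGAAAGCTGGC
Rpl4, exon 8: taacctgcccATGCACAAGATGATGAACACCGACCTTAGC
Rpl22, exon 4: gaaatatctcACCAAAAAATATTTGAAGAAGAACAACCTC
Rps24, exon 4: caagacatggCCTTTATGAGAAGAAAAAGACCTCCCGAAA
Rpl26, exon 4: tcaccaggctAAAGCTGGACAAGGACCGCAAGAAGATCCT
Rpl35, exon 4: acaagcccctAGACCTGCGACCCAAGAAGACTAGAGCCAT
Rplp2, exon 2: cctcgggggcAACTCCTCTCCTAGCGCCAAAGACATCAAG
Rpl38, exon 3: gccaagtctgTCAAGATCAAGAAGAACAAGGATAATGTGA
Rps25, exon 2: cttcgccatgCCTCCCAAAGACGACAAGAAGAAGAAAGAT

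The Rpl4 site in exon 10, the last of 10 exons, was the highest in the family. It spans chr9:64178257-64178569 (+) and begins at base 1073 of the 1257 coding bases. Its fold enrichments were 67.7 and 68.2 for Flag-MBD5, then 61.8 and 85.2 for Flag-MBD6, and the proteins overlapped. The summits held 101, 111, 152 and 166 reads. The site in exon 8, chr9:64177728-64178107 (+), had 46.6 and 34.6, then 37.1 and 47.7.

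Rpl22, a large-subunit protein with a close paralog in Rpl22l1, had 3 coding sites in all 4 libraries and hosts no snoRNA. The exon 3 site, chr4:152330019-152330219 (+), had 36.2 and 53.8, then 37.6 and 38.6. The exon 4 site, chr4:152332296-152332547 (+), had 35.2 and 40.4, then 40.3 and 44.7. The proteins overlapped at both sites. Rpl22l1 itself had a site at chr3:28806501-28806950 (+) with 7.70 and 9.15, then 13.0 and 13.0, so that both Flag-MBD6 values were higher. Of the other paralogs and relatives with peaks, Rps27l had 15.4 and 9.15, then 19.9 and 21.3, and Rps19bp1 had 15.1 and 16.2, then 21.8 and 26.4. Both Flag-MBD6 values were again above both of Flag-MBD5. Over all sites with a peak in all 4 libraries, the median log2 difference in fold enrichment was 0.41 in the same direction. Summit reads were 9 and 11, then 20 and 21 for Rpl22l1, and 19 and 16, then 31 and 35 for Rps27l. For Rps19bp1 they were 20 and 22, then 42 and 41. Estimated depth was 2.14 times as high for Flag-MBD6, so reads set against depth were on average no higher there.

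Rps24, a small-subunit protein needed to process the ribosomal RNA precursor, had a site in exon 4, chr14:24493388-24493583 (+), with 36.2 and 36.1, then 39.6 and 35.0. The proteins overlapped there. Rpl26, at the exit of the peptide tunnel, had 47.7 and 44.8 for Flag-MBD5, then 28.7 and 24.9 for Flag-MBD6 at chr11:68904380-68904640 (+). Rpl35, also at the tunnel exit, had 21.5 and 18.1, then 32.4 and 37.0, at chr2:39001477-39001745 (-). In fold enrichment the libraries of the proteins did not overlap at either site, and the directions were opposite. Summit reads were 61 and 63, then 84 and 92 at the Rpl26 site, and 29 and 40, then 63 and 58 at that of Rpl35. Estimated depth was 2.14 times as high for Flag-MBD6. Reads set against depth were thus lower on average in Flag-MBD6 at both sites, so the opposite directions depend on the measure.

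Rplp2, an acidic protein of the stalk that recruits elongation factors, had 25.8 and 26.4, then 22.1 and 25.7, at chr7:141447945-141448146 (+). Its host snoRNA, Snora52, had 24.2 and 21.4, then 26.0 and 25.8. Rplp0, which anchors the stalk, had 11.7 and 15.7, then 10.4 and 16.1 at chr5:115560804-115561291 (+), where the proteins overlapped. Rplp1, the other acidic stalk protein, had 1 peak in Flag-MBD5 replicate 1 with 4.75 and 1 in Flag-MBD6 replicate 2 with 10.3.

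Rps6 and Rps9, small-subunit genes without a snoRNA, complete the list of highest members. Rps6, the target of the S6 kinases, had 12.9 and 26.5 for Flag-MBD5, then 21.7 and 26.4 for Flag-MBD6 at its highest peak. The highest peaks of Rps9 had 18.8 and 14.2, then 26.7 and 18.6, and that of Flag-MBD5 replicate 2 lay at another site. For Rps6 the replicates of Flag-MBD5 were farther apart than the proteins.

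**Figure D3:**
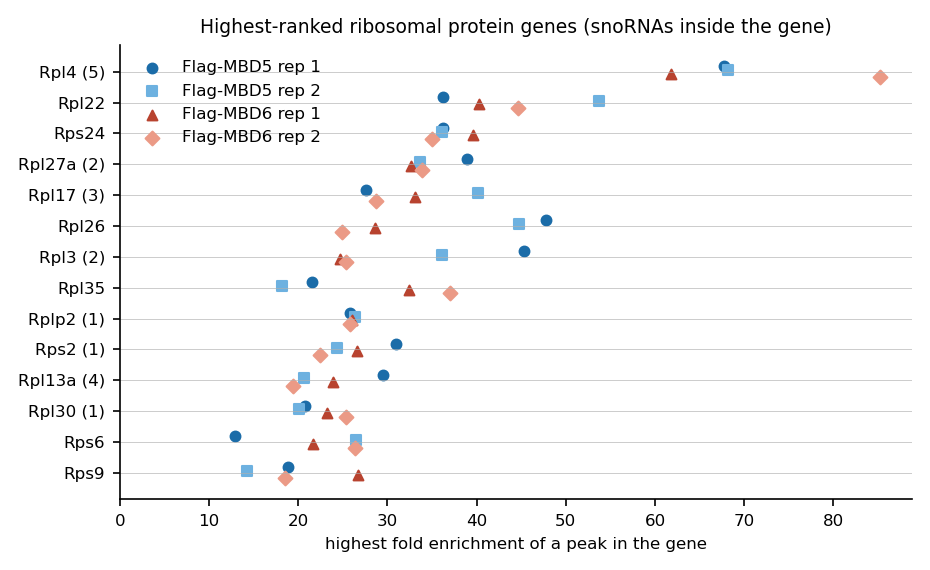
Highest fold enrichment of a peak in 14 of the 15 ribosomal protein genes with the best mean rank, with 1 point per library and the number of snoRNAs inside the gene in brackets. Rpl4 lies between 61.8 and 85.2 and the other 13 genes drawn below it, and Rpl26 and Rpl3 have both Flag-MBD5 points above both Flag-MBD6 points.

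Coding peaks of these genes began along the coding sequence, at a median of 46.1% to 54.1% of its length in the 4 libraries. Rps25 and Rps15 had sites that began right behind the start codon, at the first base of exon 2 in both genes. Within 20 nt of the start of an exon lay 17.3%, 23.6%, 24.7% and 26.0% of the starts, against 14.9% of the coding bases of the 92 genes and 20.6% to 24.2% of coding starts in other genes. The reads had been aligned without splicing and with 3 mismatches allowed, so that a read reaching well across a junction could in general not be placed on the gene. A median of at least 87 nt of the exon followed the peak start in each library.

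RNase T1 cuts after G, so the base before the 5′ end of each coding peak was read. It was G for 76.9% (95% Wilson interval 63.9% to 86.3%, n = 52 peaks) and 76.4% (63.7% to 85.6%, n = 55) of coding starts in the Flag-MBD5 libraries and for 53.4% (42.1% to 64.4%, n = 73) and 60.3% (48.8% to 70.7%, n = 73) in the Flag-MBD6 libraries. In other protein-coding genes it was G for 83.6% and 83.4%, then 74.4% and 73.5%. G makes up 27.9% of the coding bases of the 92 genes. The shares in ribosomal protein genes were below those of other genes for both proteins. The shares of other genes fell outside the Flag-MBD6 intervals and inside the Flag-MBD5 intervals. These intervals give counting error only. Some peaks share a gene and sites recur between the libraries of a protein, so the intervals are no test of a difference. Among the 10 sites printed above, the base before the peak was G at 5.

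The first 30 nt of coding peaks were richer in A than the coding sequence around them. A made up 32.2%, 33.8%, 31.9% and 31.1% of these bases in the 4 libraries, against 27.6% of all coding bases of the 92 genes. In other protein-coding genes the peak windows held 37.7% to 38.9% A, against 27.9% of their coding bases. C made up 24.2% to 26.3% of the windows in ribosomal protein genes and 20.1% to 21.8% in other genes.

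Much of the coding sequence of these genes has exact copies elsewhere, which bears on where a read could be placed. The authors dropped reads with more than 10 equally good alignments and reported 1 alignment for the rest. Of the 30-nt coding windows of a member, the median share found in no transcript of a gene elsewhere was 7.07% for the 54 members with a coding-exon peak start and 2.34% for the 38 without. The 30-nt windows at the peak starts were found nowhere else for 32%, 34.5%, 27.8% and 32.9% of peaks, and none was found in more than 10 other genes, with a maximum of 9. The comparison covers annotated transcripts only.

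The 12 members without any peak that are not paralogs or copies are Rpl15, Rpl27, Rpl29, Rpl34, Rpl35a, Rpl36a, Rpl9, Rps15a, Rps23, Rps27, Rps28 and Rps7. None of them hosts a snoRNA. The share of their coding windows found nowhere else was 0% in 7 of the 12 and at most 11.2%, in Rpl34. It was also 0% in 18 of the 51 members outside the paralogs and copies that had a coding-exon peak start. In Rpl29 87.4% and in Rpl35a 59.5% of the coding windows were found in more than 10 other genes, but so were 86.7% in Rpl21 and 81.1% in Rps2, which had 3 and 5 coding-exon peak starts over the 4 libraries. The 12 paralogs and copies without a peak ranged from 0%, in 3 of them, to 100% of windows found nowhere else, with a median of 37.9%. Rpl3l had 100%, Rpl39l 85.5% and Rpl10l 60.2%. Rpl3l is known from muscle and Rpl10l and Rpl39l from testis. Whether the 24 genes lacked peaks through placement of reads or through lack of RNA was not tested.

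**Figure D4:**
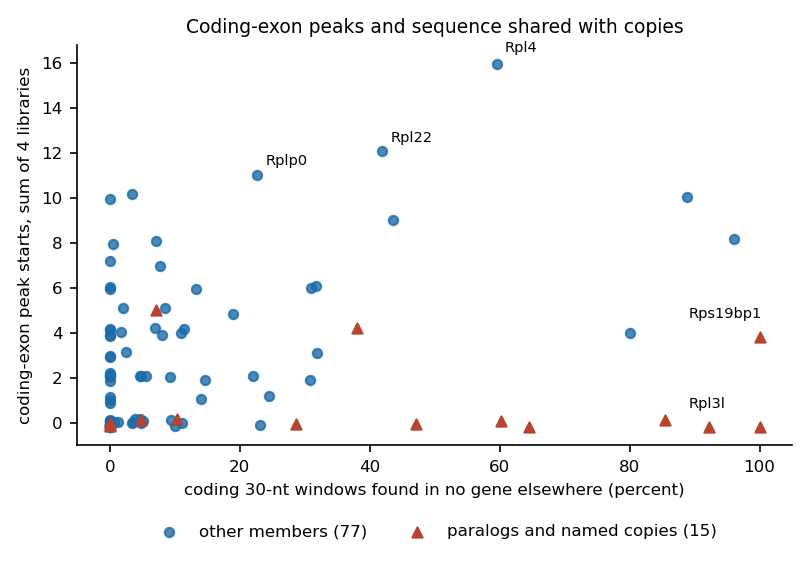
Number of coding-exon peak starts over the 4 libraries, with a small random vertical spread, against the share of a gene's coding 30-nt windows found in no gene elsewhere, in percent. Points are the 92 genes. Rpl4 has the most starts (16) at 59.5%, and Rpl3l has none at 100%.

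Peaks on pseudogenes carried the sequence of these genes as well. Named ribosomal protein pseudogenes numbered 294, and 38, 38, 51 and 47 peaks lay on them in the Flag-MBD5 and Flag-MBD6 libraries in turn. Counting every pseudogene peak whose first 30 nt occur word for word in the transcript of a ribosomal protein gene gave 100, 98, 118 and 129 peaks. The genes themselves held 106, 103, 132 and 137 peaks, of which 57, 57, 82 and 82 did not start in a small RNA. Of these windows, 24%, 25.5%, 27.1% and 27.1% spanned an exon junction of the gene they match, against 19.4% of the coding windows of the 92 genes. The matches were sought in whole transcripts, untranslated parts included, so the compared sets are not the same.

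The highest of these peaks reached the level of those on the genes. On Rps24-ps2 the fold enrichments were 45.6 and 44.1 for Flag-MBD5, then 57.7 and 48.7 for Flag-MBD6, all above those of the Rps24 site. On Gm4332, which matches Rps20, they were 49.2 and 52.4, then 53.9 and 32.7, and on Gm11263, which matches Rps6, 32.3 and 32.8, then 20.2 and 41.1. On Gm5835, which matches Rpl4, a peak of 84.8 was found in Flag-MBD6 replicate 2 alone. Which of the gene and its copies gave rise to these reads cannot be told apart where their sequence is the same.

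The comparison between the proteins used sites, which are peaks of the 4 libraries merged where they share 1 bp on a strand. The ribosomal protein genes held 149 sites, and 91 of them had a peak in all 4 libraries, which is 61.1%, against 29.5% of all 12074 sites. Small RNA sites recurred in 47 of 53 cases, against 68.5% of small RNA sites overall. Coding sites recurred in 42 of 86, against 29.1% of coding sites overall. Of the regions found in both Flag-MBD5 libraries, 92 of 94 (97.9%) were overlapped by a region of both Flag-MBD6 libraries, and 91 of 118 (77.1%) the other way. Over all regions of the data these shares were 90% and 47.7%.

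Fold enrichment at the shared sites was close to level between the proteins in ribosomal protein genes. The median log2 difference, Flag-MBD6 minus Flag-MBD5, was 0.01 over the 91 sites, with an SD of 0.04 over the 4 pairs of libraries, against 0.41 over all 3566 sites. The pairs share libraries, so this SD is no measure of spread between independent samples. The median log2 difference was 0.09 at the 42 coding sites, against 0.50 at the coding sites of other genes. At the 47 small RNA sites it was -0.15, against -0.16 at small RNA sites outside the family. Summit reads divided by estimated depth (scaled summit reads) gave a median log2 difference of -0.60, against -0.33 over all sites, so the direction depends on the measure. Summit reads themselves were a median of 1.42 times as many in Flag-MBD6 at the family's coding sites and 1.41 times at its small RNA sites, against 1.82 times at coding sites of other genes, while estimated depth differed 2.14 times.

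**Figure D5:**
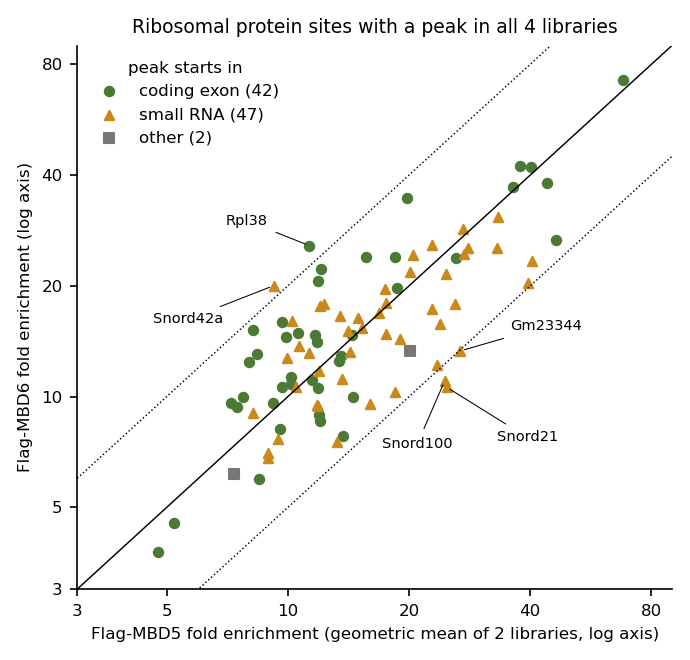
Fold enrichment of Flag-MBD6 against Flag-MBD5 at the 91 shared sites of ribosomal protein genes, each the geometric mean of 2 libraries, on log axes, by where the peak starts. The solid line marks equal values and the dotted lines a 2-fold difference. The sites lie around the line, and the 5 named ones differed at least 2-fold with no overlap of the libraries.

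A difference of at least 2-fold, with every library of a protein above every library of the other, was called at 5 of the 91 sites. Flag-MBD6 was higher at 2 of them, against 15% of all sites, and Flag-MBD5 at 3, against 0.869% of all sites. Those 3 all start in small RNAs, where 5.69% of all small RNA sites were called higher in Flag-MBD5 and 0.813% in Flag-MBD6. Of the 42 coding sites 1 was called, higher in Flag-MBD6, against 18.1% of all coding sites in that direction and 0.471% in the other. With scaled summit reads, 9 of the 91 sites were called, all higher in Flag-MBD5, against 9.9% of all sites in that direction and 0.897% in the other.

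The 3 sites higher in Flag-MBD5 lie in the snoRNAs printed above. Snord21 in Rpl5 had fold enrichments of 36.7 and 16.8 for Flag-MBD5, then 8.24 and 13.7 for Flag-MBD6 (log2 difference -1.22). Snord100 in Rps12 had 24.6 and 24.4, then 9.71 and 12.5 (-1.15). Gm23344 in Rpl4 had 24.3 and 29.6, then 10.8 and 16.4 (-1.01). By scaled summit reads the differences were -0.87, -0.79 and -0.96, so none of the 3 is among the 9 sites called on that scale. Rpl5 and its partner Rpl11 form part of the particle that carries 5S ribosomal RNA. Rpl11, which hosts no snoRNA, had a single peak in 1 library of each protein, with 7.98 and 8.65. At Snord21, Flag-MBD5 replicate 1 lay above the other 3 libraries, and without it the log2 difference was -0.66.

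The 2 sites higher in Flag-MBD6 are Snord42a in Rpl23a and a coding site in Rpl38. Rpl38 is known for its part in the translation of Hox mRNAs. Its site in exon 3, chr11:114671734-114671966 (+), had 13.9 and 9.15 for Flag-MBD5, then 25.4 and 26.0 for Flag-MBD6 (log2 difference 1.19), from 18, 16, 40 and 43 summit reads. Snord42a had 10.3 and 8.23, then 22.2 and 18.1 (1.12), from 58, 66, 78 and 76 summit reads. By scaled summit reads the Rpl38 difference was 0.19 and that of Snord42a was -0.78, the opposite direction. Its neighbour Snord42b in the same gene had 21.8 and 9.09, then 17.9 and 12.6, with overlap.

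Sites of 1 protein were then counted. A single site of 149 (0.671%), in a coding exon of Rpl36, had a peak in both Flag-MBD5 libraries and none in Flag-MBD6, with fold enrichments of 5.83 and 8.97 from 8 and 12 summit reads. Among all sites 1.28% had this pattern. In the other direction 16 sites (10.7%) had peaks in both Flag-MBD6 libraries only, against 20.6% of all sites, and 11 of them lay in coding exons. For 3 genes such a site was the only peak in any library. Rps27a, made as a fusion with ubiquitin, had 13.1 and 8.62 there, from 19 and 17 summit reads. Rpl37a had 10.8 and 11.8, and Rps10 had 9.19 and 7.87. The 3 genes had at most 19 reads at the summit in the deeper libraries, and a level in proportion to depth in the Flag-MBD5 libraries was not tested.

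The remaining members with a peak in fewer than 4 libraries had fold enrichments of 4.75 to 13.1. Rpl31 and Rps14 had a peak in 1 Flag-MBD5 and both Flag-MBD6 libraries, and Rpl18 and Rpl19 in 1 library of each protein. A single Flag-MBD6 library held the peaks of Rpl14 (2 peaks), Rps19, Rps21, Rps29 and Rps4x. Replicates of a protein thus disagreed on these genes.

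Rack1 and Fau encode ribosomal proteins that the name rule leaves out. Rack1, a small-subunit scaffold, had 8 peaks in both replicates of Flag-MBD5 and 7 and 6 for Flag-MBD6, with highest fold enrichments of 11.0 and 12.03, then 8.28 and 10.9. Fau, made as a fusion with a ubiquitin-like protein, had 1 peak in each library with fold enrichments of 14.0 and 16.3, then 22.6 and 19.3.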

How the data were processed

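Per the labels and the study's methods, the authors clipped, filtered and collapsed the reads, kept those over 15 nt, removed ribosomal RNA, aligned the rest without splicing to mm10 with Bowtie 1.0.0 (3 mismatches, at most 10 alignments, 1 reported), split strands with SAMtools 1.16.1 and called peaks per strand and library with MACS2 (q under 0.01, reads extended to 150 nt, at most 5 reads per start). Replicates were not pooled. The deposited score of a peak follows its q-value, deposited fold enrichments are ratios of reads at the summit to a local rate, and MACS2 also wrote the −log10 p and −log10 q that the authors deposited. Whether the inputs served as control is not given in the sources used here.

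Summit reads and the background rate were solved from fold enrichment and −log10 p for each peak (100% solved, within a relative tolerance of 0.001), and depth from the lowest rate, so depths are estimates. The solver, the merging of peaks and the 2-fold call were tested on simulated data. GENCODE release M21 on the same build gave genes, and its transcripts gave sequences. RefSeq (GRCm38.p6) gave 1 snoRNA. Intervals are 95% Wilson intervals. Python 3.11, pandas, scipy and statsmodels were used.

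The 15 members with the best mean rank of highest fold enrichment, members found with 1 protein only, sites past 2-fold, the P-stalk, paralogs, Fau and Rack1 were named by rule, and 2 genes of that rule are not reported here. Members and lists were chosen with earlier results of these data known. The split into small RNA and coding starts, the box search, the comparisons with copies and pseudogenes, the exon-edge count, and the naming of Rps25, Rps15, Rpl7a, Rpl11, Rpl3l, Rpl10l, Rpl39l and of the snoRNAs and pseudogenes came after values were seen.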

Additional observations from a re-analysis of the deposited data

How the results depend on the processing

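Of the recomputed values 96 stayed, 19 moved, 12 fell below the 2-fold call and 2 changed direction. Staying means within 1.5 times (counts), the counting interval (shares) or 1 SD of the library pairs (ratio and median). A ratio or median was counted as changing direction only where its main value lay more than 1 SD from equality. The main median log2 difference of 0.01 did not, so its turn to -0.60 with scaled summit reads was counted as moved. When equal numbers of peaks were taken per library, the ratio of peaks in ribosomal protein genes between the proteins (Flag-MBD6 over Flag-MBD5, 1.29) became 0.971, the opposite direction, and the overlaps became 85.1% of Flag-MBD5 regions and 87.8% of Flag-MBD6 regions. With midpoints required in an exon the ratio was 1.42. Placed at the midpoint in place of the 5′ end, 27.8% of Flag-MBD5 and 37.2% of Flag-MBD6 peaks lay in coding exons, and at the summit 32.5% and 36.4%. Scaled summit reads gave a median log2 difference of -0.60 and 9 sites past 2-fold, and turned Snord42a to -0.78, and with it none of the 5 called sites was past 2-fold. Those sites also lost the call without 1 library: Snord42a at 0.96 (Flag-MBD5 replicate 2) and 0.97 (Flag-MBD6 replicate 1), Rpl38 at 0.88 (Flag-MBD5 replicate 2), Gm23344 at -0.87 (Flag-MBD5 replicate 2) and -0.71 (Flag-MBD6 replicate 1), Snord21 at -0.66 (Flag-MBD5 replicate 1) and -0.86 (Flag-MBD6 replicate 1), and Snord100 at -0.97 (Flag-MBD6 replicate 1). Leaving out each library in turn gave 3 to 11 sites past 2-fold (11 without Flag-MBD5 replicate 1, 3 without Flag-MBD5 replicate 2 and 9 without Flag-MBD6 replicate 2) and overlaps of Flag-MBD6 regions of 67.2% (without Flag-MBD6 replicate 1) to 83.1%. Leaving out peaks that start in a small RNA, a setting added after the data were seen, gave 35 genes in all 4 libraries, a ratio of 1.44, overlaps of 89.6% and 66.2%, a median log2 difference of 0.083 and 1 site past 2-fold. The causes were not tested. No paired analysis was possible because no result comes from a test. The median log2 difference was 0.03 between the libraries numbered 1 and 0.03 between those numbered 2.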
